A study of Bos taurus and other sequences with 9 samples.

Results

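The 7 miRNAs described here are hsa-miR-10a-5p and hsa-miR-10b-5p, hsa-miR-99a-5p, hsa-miR-99b-5p and hsa-miR-100-5p, and hsa-miR-125a-5p and hsa-miR-125b-5p. They were taken by name from the 425 miRNAs of the count table, and each of the 7 was present. Small RNA was sequenced from extracellular vesicle (EV) isolates of 9 samples of 5 culture media. RNA outside vesicles may have been part of these isolates, as no nuclease or detergent treatment separated it. FBS was DMEM/F12 with untreated fetal bovine serum, from Sigma-Aldrich in FBS-1 and from Gibco in FBS-2. UC-dFBS and UF-dFBS held, in the same basal medium, the same 2 sera after EVs had been removed by ultracentrifugation or by ultrafiltration, with Sigma-Aldrich serum in sample 1 and Gibco serum in sample 2. SBI-dFBS was a purchased EV-depleted serum of System Biosciences in 2 lots, whose untreated serum was not sequenced. StemPRO was a defined serum-free and xeno-free medium with 1 sample, so its values have no replicate and no test. No cells were cultured in the media, and the 2 samples of a medium are different sera or lots. The p-values therefore set differences against the spread between sera or lots together with technical spread. In the edgeR fits this spread was wholly pooled over miRNAs. A miRNA's own spread between its 2 samples thus did not set its p-value there.

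A miRNA is a short RNA that guides silencing proteins to messenger RNAs, mainly through the seed near its 5′ end, and miRNAs with the same seed share many targets. The miR-10 and miR-99/100 miRNAs are relatives in sequence, and in vertebrates the miR-10 genes lie within the Hox gene clusters that pattern the body axis. miR-99/100 are known to act on mTOR signalling, and the miR-125 miRNAs are the vertebrate counterparts of lin-4 of the nematode worm. miR-99/100, let-7 and miR-125 genes sit together in clusters that are found across animals, and let-7 and miR-125 are known for their part in developmental timing. Vesicles and protein complexes carry such miRNAs in blood, which is how they enter serum.

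In the cattle gene table of RefSeq (assembly ARS-UCD2.0), the 7 miRNAs came from 8 genes. MIR99A neighboured MIRLET7C and MIR125B-2, MIR100 neighboured MIRLET7A-2 and MIR125B-1, and MIR99B neighboured MIRLET7E and MIR125A. MIR10A overlapped HOXB3 and MIR10B overlapped HOXD4. The miR-125b reads cannot be assigned to 1 of its 2 genes, since both give the same mature miRNA. miR-10a and miR-10b, and likewise miR-99a and miR-100, differ at few bases. The first mapping step required perfect matches to mature sequences, but a later step allowed a mismatch to the genome, so reads may have been exchanged within these pairs, which was not tested.

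miRNA counts per sample ranged from 937 in UF-dFBS-2 to 203755 in FBS-1, and the 7 miRNAs held 639, 1028, 379, 126, 184, 146, 62 and 3 of these counts in FBS-1, FBS-2, SBI-dFBS-1, SBI-dFBS-2, UC-dFBS-1, UC-dFBS-2, UF-dFBS-1 and UF-dFBS-2, and 30 in StemPRO. Depth limited the lower values. A count of 0 leaves room for about 3 counts, worth 0.332 to 0.794 spike-in normalized counts in SBI-dFBS and 0.0543 to 0.125 in UF-dFBS. Levels are given as spike-in normalized counts, in which the authors divided each count by a factor fitted to added RNAs of known amount. Intervals are 95% intervals and cover counting error only. miRNAs of other tissues lay below their FBS values in the depleted media as well, except miR-122-5p of liver in SBI-dFBS. miR-122-5p did not pass edgeR's test against FBS in SBI-dFBS (adjusted p = 0.813) or in UC-dFBS (adjusted p = 0.216). miR-122-5p of liver ranged from 4817 to 19403 spike-in normalized counts in FBS, from 6517 to 11915 in SBI-dFBS, from 2100 to 4629 in UC-dFBS and from 16.2 to 46.0 in UF-dFBS. The summed red cell miRNAs (3 of 3 listed were present) ranged from 211 to 273, 111 to 168, 14.8 to 19.3 and 0.597 to 0.916 in the same order. The 3 white cell and platelet miRNAs ranged from 1031 to 3082, 124 to 501, 110 to 248 and 0.708 to 0.779, and miR-126-3p of endothelium from 1196 to 2116, 111 to 155, 155 to 320 and 0.167 to 0.235. Their part in the differences below was not tested.

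In untreated FBS, miR-10b-5p was the most abundant of the 7, with spike-in normalized counts of 58.0 in FBS-1 and 63.7 in FBS-2. miR-99a-5p followed with 30.1 and 25.6, and miR-10a-5p with 15.5 and 15.96. The ranges of these 3 miRNAs over the 2 sera did not overlap with each other. miR-125b-5p had 10.7 and 14.6, miR-100-5p 8.88 and 8.05, miR-125a-5p 5.99 and 5.63, and miR-99b-5p 2.68 and 4.29. The order was the same in both sera, and no neighbours in it overlapped, but the step of 3.04 from miR-10a-5p to miR-125b-5p was close to the SD of miR-125b-5p (2.75, n = 2). Adapter ligation can favour some sequences, so the order between miRNAs is that of counted molecules. Among all miRNAs, miR-10b-5p ranked 37 and 28 by count in FBS-1 and FBS-2, whereas miR-99b-5p ranked 155 and 112. The 7 miRNAs were thus of middle abundance, and together they made up 0.314% (0.290 to 0.339, Wilson interval) of the miRNA counts in FBS-1 and 0.826% (0.778 to 0.878) in FBS-2. The summed level of the 7 was 132 in the Sigma-Aldrich serum and 138 in the Gibco serum, whereas the level of all miRNAs was 42063 and 16687.

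**Figure D1:**
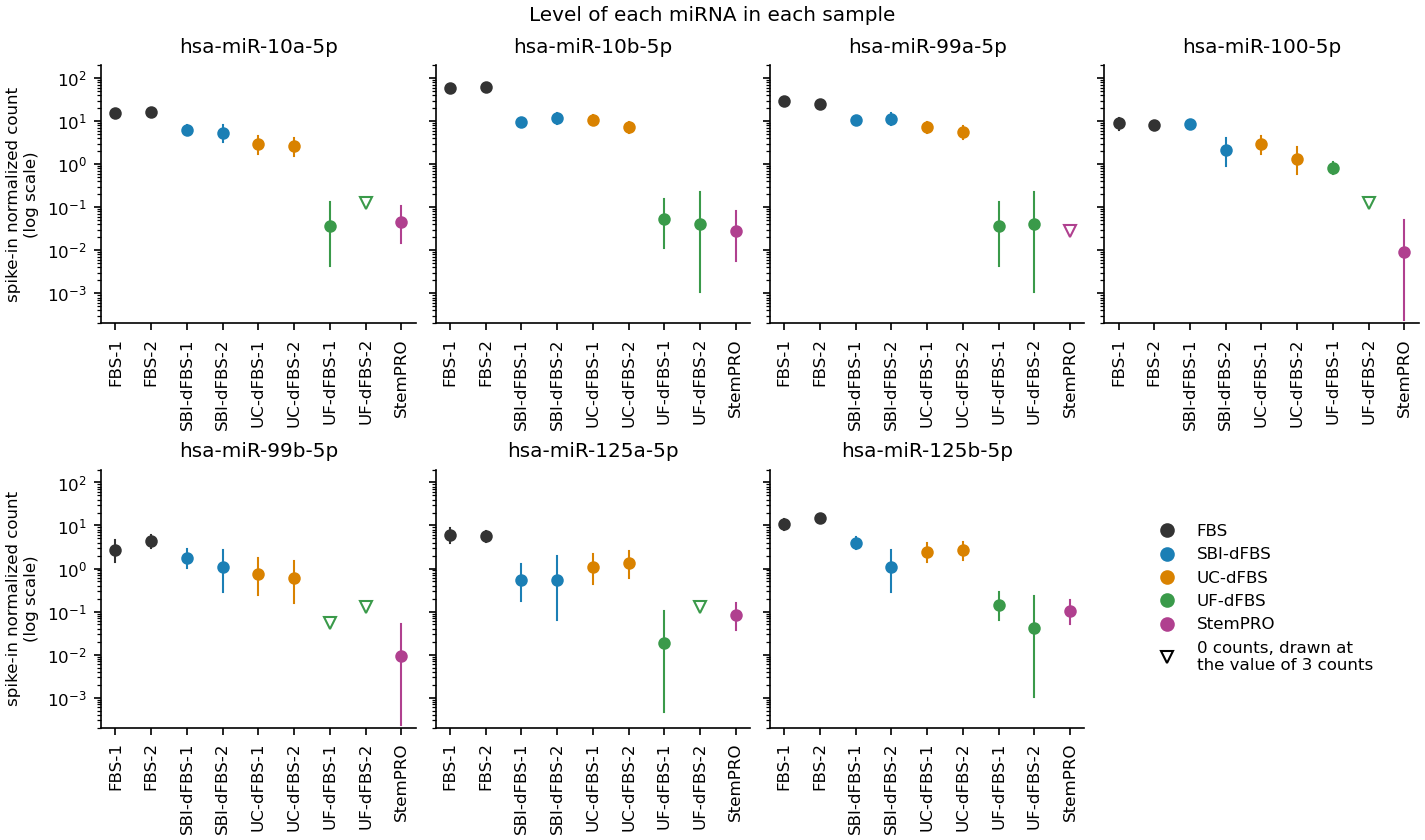
Spike-in normalized count (log scale) of each of the 7 miRNAs in the 9 samples, with 95% Poisson intervals that are cut at the lower axis limit; open triangles are samples with 0 counts, drawn at the value of 3 counts. The UF-dFBS and StemPRO points lie below the FBS points in every panel, and miR-100-5p in SBI-dFBS-1 (8.73) lies between FBS-1 (8.88) and FBS-2 (8.05).

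The comparison of SBI-dFBS with FBS set a purchased EV-depleted serum against untreated sera of other suppliers. Starting serum and depletion cannot be told apart in it. The level of the 7 together was 41.9 in SBI-dFBS-1 and 33.4 in SBI-dFBS-2, or 27.9% ± 4.56 (propagated SD, n = 2) of the FBS mean of 135 ± 4.23 (SD, n = 2). Both lots lay below both untreated sera. The exact two-sided permutation p of the total was 0.333, the smallest that 2 against 2 samples can give. By edgeR's quasi-likelihood test, 3 of the 7 miRNAs were lower at an adjusted p under 0.05 and 0 were higher, where 44.2% of the 163 miRNAs tested were lower. For 6 of the 7, both lots lay below both FBS samples, as they did for 74.8% of the miRNAs tested. The median log2 change was -1.43 for the 7 and -1.70 for the 163.

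The 3 miRNAs that were lower in SBI-dFBS came from 2 subfamilies. miR-125a-5p was at 0.553 and 0.529 in the lots, far below its FBS values, and changed by -3.40 on the log2 scale (SE 1.05, adjusted p = 0.00585, edgeR). It rested on 5 and 2 counts. miR-10b-5p was at 9.73 and 11.9, a log2 change of -2.50 (SE 0.63, adjusted p = 0.000799, edgeR). miR-125b-5p was at 3.98 and 1.06, a log2 change of -2.26 (SE 0.82, adjusted p = 0.0181, edgeR). Relative to the mean, its lots (2.52 ± 2.07, SD, n = 2) differed more than its untreated sera (12.7 ± 2.75, SD, n = 2).

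The other 4 miRNAs did not pass the test in SBI-dFBS. miR-99a-5p was at 10.8 and 11.4, which made it level with miR-10b-5p, and its log2 change was -1.33 (SE 0.65, adjusted p = 0.0794, edgeR). miR-10a-5p was at 6.30 and 5.29 (log2 change -1.43, adjusted p = 0.0969, edgeR), and miR-99b-5p was at 1.77 and 1.06 (log2 change -1.26, adjusted p = 0.258, edgeR). Each of these 3 was nevertheless lower in both lots than in both untreated sera. miR-100-5p was at 8.73 in lot 1, the level of untreated serum, and at 2.12 in lot 2, and its log2 change of -0.60 had an SE of 0.79 (adjusted p = 0.509, edgeR). The calls rested on both lots: without SBI-dFBS-1 0 of the 7 were called and without SBI-dFBS-2 1 was, while a limma fit called 5, adding miR-10a-5p and miR-99a-5p.

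Ultracentrifugation of the same sera could be compared with each serum's own untreated sample. The level of the 7 together was 28.1 in UC-dFBS-1 and 21.4 in UC-dFBS-2, or 18.4% ± 3.58 (propagated SD, n = 2) of the FBS mean (exact two-sided permutation p = 0.333). Within the Sigma-Aldrich serum 21.3% (95% interval 18.0 to 25.2) of the level remained, and within the Gibco serum 15.5% (13.0 to 18.5). All miRNAs together kept 18.5% and 23.1% in the same sera. All 7 miRNAs were lower in UC-dFBS than in FBS by edgeR, as were 90.8% of the 163 tested, and both values lay below both FBS values for 7 of 7 and for 98.2% of those tested. Their median log2 change was -2.32, against -2.70 for the 163.

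The log2 changes of the 7 after ultracentrifugation lay close together. miR-10b-5p was at 10.9 and 7.33, with the lowest log2 change of the 7 (-2.74, SE 0.63, adjusted p = 0.000118, edgeR). miR-100-5p was at 2.91 and 1.32, with the smallest change (-1.999, SE 0.84, adjusted p = 0.0217, edgeR). The span between these extremes was smaller than the SE of miR-100-5p, so the changes of the 7 could not be ordered. miR-99a-5p (7.19 and 5.57), miR-10a-5p (2.91 and 2.64), miR-125b-5p (2.45 and 2.64), miR-125a-5p (1.07 and 1.32) and miR-99b-5p (0.765 and 0.586) had log2 changes from -2.13 to -2.50, with adjusted p from 0.00300 to 0.0269 (edgeR). The order of the mean levels was that of FBS, but miR-10a-5p, miR-125b-5p, miR-100-5p and miR-125a-5p now overlapped with their neighbours in it. Without UC-dFBS-2 1 of the 7 was called, without UC-dFBS-1 4 were, and without FBS-1 5 were. DESeq2 with spike-in factors called 5, leaving out miR-100-5p (adjusted p = 0.105) and miR-99b-5p (adjusted p = 0.0504).

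**Figure D2:**
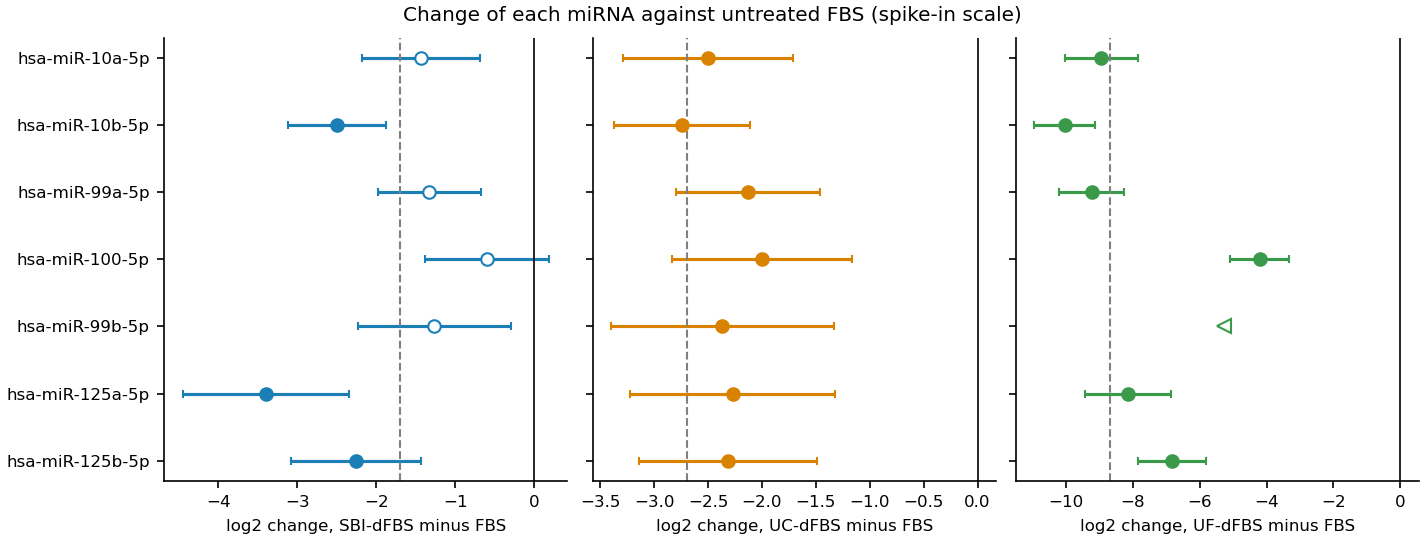
Log2 change of each of the 7 miRNAs against FBS in SBI-dFBS, UC-dFBS and UF-dFBS (edgeR, spike-in scale, bars are SE; each panel has its own x axis). Filled points passed an adjusted p under 0.05, the dashed line is the median of the 163 miRNAs tested (-1.70, -2.70 and -8.67), and the open triangle is the bound for miR-99b-5p, which had 0 counts in both UF-dFBS samples; miR-100-5p lies nearest to 0 in each panel.

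Ultrafiltration left few counts of these miRNAs. The level of the 7 together was 1.12 in UF-dFBS-1 and 0.125 in UF-dFBS-2, or 0.462% ± 0.523 (propagated SD, n = 2) of the FBS mean (exact two-sided permutation p = 0.333). Within the Sigma-Aldrich serum 0.851% (95% interval 0.645 to 1.106) remained, and within the Gibco serum 0.0906% (0.0186 to 0.265), a gap carried by miR-100-5p. The summed level of the other 6 was 0.290 (0.166 to 0.470) and 0.125 (0.0258 to 0.365), whose intervals overlapped, and their mean was 0.164% of that in FBS. All 7 miRNAs were lower than in FBS by edgeR, as were 98.2% of the 163 tested, and both values lay below both FBS values for 7 of 7 and for 98.8% of those tested. All 7 were also lower than in UC-dFBS (93.9% of those tested), with both values below both UC-dFBS values for 7 of 7 (89.6%). The median log2 change from FBS was -8.70 for the 7 and -8.67 for the 163, or -8.14 and -7.66 when miRNAs with 0 counts in both samples stand at their bound. From UC-dFBS it was -6.33 and -5.83, or -5.87 and -5.14 at the bound.

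miR-100-5p stood apart from the other 6 in UF-dFBS. It had 46 counts in UF-dFBS-1, which is 74.2% of the 62 counts of the 7 there, and 0 counts in UF-dFBS-2. Its level of 0.833 in UF-dFBS-1 was 9.38% (95% interval 6.05 to 14.6) of its own untreated serum, the fourth highest share among the 171 miRNAs with at least 10 counts in FBS-1, whose median was 0.0873%. In the Gibco serum the 0 counts mean a level at least 64.4-fold lower than in FBS-2, so the high value was that of 1 sample. miR-100-5p ranked 108 by count in FBS-1 and 9 in UF-dFBS-1. Its fitted log2 change from FBS was -4.21 (SE 0.88, adjusted p = 2.53e-06, edgeR), and -2.21 from UC-dFBS (SE 0.85, adjusted p = 0.0109, edgeR). The call against UC-dFBS was lost under DESeq2 with spike-in factors (adjusted p = 0.0639) and in edgeR fits without UC-dFBS-1 (log2 change -1.54, adjusted p = 0.202) or without UF-dFBS-2 (-1.33, adjusted p = 0.183). Without UF-dFBS-1, miR-100-5p had only its 0 counts in UF-dFBS-2, so the fitted changes then depend on the prior count and are not given. This miRNA was singled out after its values were seen.

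The other 6 miRNAs held 16 counts in UF-dFBS-1 and 3 in UF-dFBS-2. miR-125b-5p had 8 counts in UF-dFBS-1 (0.145) and 1 in UF-dFBS-2 (0.0416), and its level was 74.1-fold (95% interval 35.0 to 181) and 351-fold (61.7 to 13998) lower than in its own untreated serum. miR-10b-5p, the most abundant in FBS, had 3 counts (0.0543) and 1 count (0.0416), so it was 1068-fold (362 to 5210) and 1531-fold (273 to 60578) lower. miR-99a-5p had 2 and 1 counts and was 832-fold (226 to 6938) and 615-fold (109 to 24434) lower. miR-10a-5p had 2 and 0 counts, miR-125a-5p 1 and 0, and miR-99b-5p 0 in both. With 3 counts in place of 0, the fold of miR-99b-5p was 49.4 in the Sigma-Aldrich serum and 34.4 in the Gibco serum. The lower 95% limits from 0 counts were 34.8 and 26.4. The fitted log2 changes of the 6 ran from -6.82 (miR-125b-5p, SE 1.01) to -10.03 (miR-10b-5p, SE 0.92). The value of miR-99b-5p depends on the prior count and is no bound. Those of miR-10a-5p and miR-125a-5p, with 0 counts in UF-dFBS-2, depend on it in part. Their fitted ratios to FBS were 0.00205 and 0.00354, against 0.00115 and 0.00156 from the mean levels.

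The directions above hold on the spike-in scale, which keeps differences in total RNA. With TMM factors, which remove a shift common to most miRNAs, the median of the 163 moved from -1.70 to 0.21 for SBI-dFBS, from -2.70 to -0.08 for UC-dFBS and from -8.67 to -0.59 for UF-dFBS. On that scale 0 of the 7 were called in SBI-dFBS or UC-dFBS, and positive values were reached by miR-10a-5p, miR-99a-5p, miR-99b-5p and miR-100-5p in both media and by miR-125a-5p and miR-125b-5p in UC-dFBS. In UF-dFBS, miR-100-5p turned to a log2 change of 4.47 from FBS (adjusted p = 0.00288, edgeR) and of 3.995 from UC-dFBS (adjusted p = 0.00959, edgeR). These values rest on UF-dFBS-1, where miR-100-5p was 1.09% of the miRNA counts, against a mean of 0.0347% in FBS and 0 counts in UF-dFBS-2. miR-125b-5p turned to 1.71 and 1.51 but did not pass the test.

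The share of the 7 in the miRNA counts does not depend on the spike-ins. The SBI-dFBS lots had 0.437% (0.395 to 0.483) and 0.205% (0.173 to 0.245), the UC-dFBS samples 0.362% (0.314 to 0.419) and 0.556% (0.473 to 0.653), and the UF-dFBS samples 1.47% (1.15 to 1.89) and 0.320% (0.109 to 0.937). Each medium overlapped with FBS, and the exact two-sided permutation p was 0.667, 1 and 0.667. miR-122-5p was at 46.1% and 28.9% of the miRNA counts of FBS, 68.0% and 73.4% of those of SBI-dFBS, 59.6% and 54.5% of those of UC-dFBS and 60.4% and 41.5% of those of UF-dFBS. Within FBS, SBI-dFBS and UC-dFBS, the sample with more miR-122-5p had the lower share of the 7, but within UF-dFBS it had the higher share. With miR-122-5p left out of the total, the FBS mean for the 7 was 0.872%, and SBI-dFBS had 1.07% (exact permutation p = 0.667), UC-dFBS 1.06% (p = 0.667) and UF-dFBS 2.14% (p = 1). Without miR-100-5p, the mean share of the other 6 was 0.350% in UF-dFBS, below the FBS mean of 0.535%, whereas the 7 together had a mean of 0.897%.

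**Figure D3:**
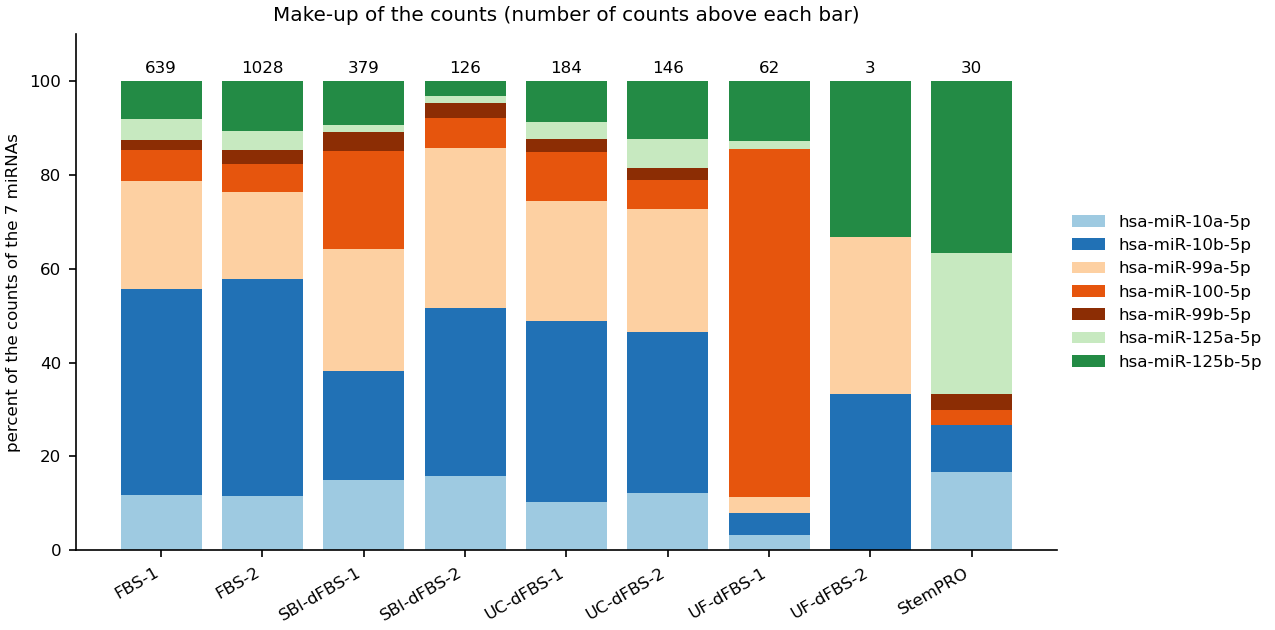
Percent of the counts of the 7 miRNAs that each miRNA held in each sample, with the number of counts above the bar. miR-10b-5p held 44.0% and 46.2% in FBS, miR-100-5p held 74.2% in UF-dFBS-1, and miR-125a-5p and miR-125b-5p together held 66.7% in StemPRO; the bar of UF-dFBS-2 rests on 3 counts.

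Within subfamilies, the balance of the paralogs was steady in untreated serum. miR-10a-5p made up 21.1% (17.2 to 25.6) of the miR-10 counts in FBS-1 and 20.03% (17.0 to 23.4) in FBS-2. In SBI-dFBS it was 39.3% (31.7 to 47.4) and 30.8% (20.9 to 42.8), above both FBS values in both lots, although the interval of lot 2 reached into that of FBS. In UC-dFBS it was 21.1% (14.0 to 30.6) and 26.5% (17.4 to 38.0). The mean shares were 20.6% ± 0.731, 35.0% ± 6.04 and 23.8% ± 3.79 (SD, n = 2 each), and no test was run on them.

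miR-99a-5p held 77.2% (70.8 to 82.6) and 76.1% (70.5 to 81.0) of its sum with miR-100-5p in FBS, and 71.2% (59.4 to 80.7) and 80.9% (67.5 to 89.6) in UC-dFBS. The SBI-dFBS lots lay on either side, at 55.4% (48.0 to 62.5) in lot 1 and 84.3% (72.0 to 91.8) in lot 2. In UF-dFBS-1 it was 4.17% (1.15 to 14.0) of 48 counts, the lowest of the FBS-based samples, and UF-dFBS-2 had 1 count of the pair. miR-99b-5p, whose gene lies in the MIR99B cluster, held 6.44% and 11.3% of the miR-99/100 counts in FBS and 7.04% to 8.29% in the 4 samples of SBI-dFBS and UC-dFBS. These shares did not differ beyond their intervals.

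miR-125a-5p made up 35.8% (26.2 to 46.7) and 27.8% (21.3 to 35.4) of the miR-125 counts in FBS and 30.4% and 33.3% in UC-dFBS. In SBI-dFBS-1 it was 12.2% (5.32 to 25.5) of 41 counts, and SBI-dFBS-2 held 6 counts of the pair. At the level of subfamilies, miR-10 held 55.7% (51.8 to 59.5) and 57.8% (54.7 to 60.8) of the counts of the 7 in FBS, 38.3% (33.5 to 43.2) and 51.6% (42.9 to 60.1) in SBI-dFBS and 48.9% (41.8 to 56.1) and 46.6% (38.7 to 54.7) in UC-dFBS. miR-99/100 held 31.6% (28.1 to 35.3) and 27.5% (24.9 to 30.3), 50.9% (45.9 to 55.9) and 43.7% (35.3 to 52.4), and 38.6% (31.9 to 45.8) and 34.9% (27.7 to 43.0) in the same order. The values of SBI-dFBS and UC-dFBS lay below those of FBS for miR-10 and above them for miR-99/100, but for both subfamilies the intervals of SBI-dFBS-2, UC-dFBS-1 and UC-dFBS-2 overlapped with that of FBS-1.

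The let-7 miRNAs of the same clusters were tested in the same fits. let-7a-5p, let-7c-5p and let-7e-5p were lower in each depleted medium (3 of 3 each time), and the median log2 change from FBS was -4.01 for SBI-dFBS, -2.81 for UC-dFBS and -11.48 for UF-dFBS. In SBI-dFBS let-7c-5p changed by -4.12 (SE 0.74, adjusted p = 1.43e-06, edgeR) and let-7e-5p by -4.01 (SE 0.68, adjusted p = 4.28e-07, edgeR), against -1.33 and -1.26 for miR-99a-5p and miR-99b-5p of their clusters. The difference between cluster mates was not tested in the fit, but their ratio can be read within each sample. There were 6.62 and 13.2 miR-99a-5p counts per 100 let-7c-5p counts in FBS, 104 and 41.7 in SBI-dFBS, and 11.5 and 18.8 in UC-dFBS. Both SBI-dFBS lots lay above both FBS samples.

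For miR-99b-5p too, both SBI-dFBS lots lay above both FBS samples, on 16 and 4 counts of it. Per 100 let-7e-5p counts it had 1.84 and 5.16 in FBS and 36.4 and 11.1 in SBI-dFBS. In UC-dFBS it had 3.52 and 4.21, within the FBS range. miR-125a-5p of that cluster had 4.11 and 6.77 in FBS, 11.4 and 5.56 in SBI-dFBS and 4.93 and 9.47 in UC-dFBS, so its media overlapped. miR-100-5p per 100 let-7a-5p was 0.322 and 0.482 in FBS, 6.71 and 0.602 in SBI-dFBS and 0.763 and 0.740 in UC-dFBS. miR-125b-5p per 100 let-7c-5p was 2.36 and 7.54 in FBS, 38.3 and 3.88 in SBI-dFBS and 3.90 and 8.91 in UC-dFBS, so its media overlapped. let-7a-5p and miR-125b-5p come from further genes as well, so the ratios with either do not belong to 1 cluster. The products of the opposite hairpin arms (8 of 8 listed were present) had 28 and 25 counts in all in FBS and did not reach the minimum count in the fits.

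**Figure D4:**
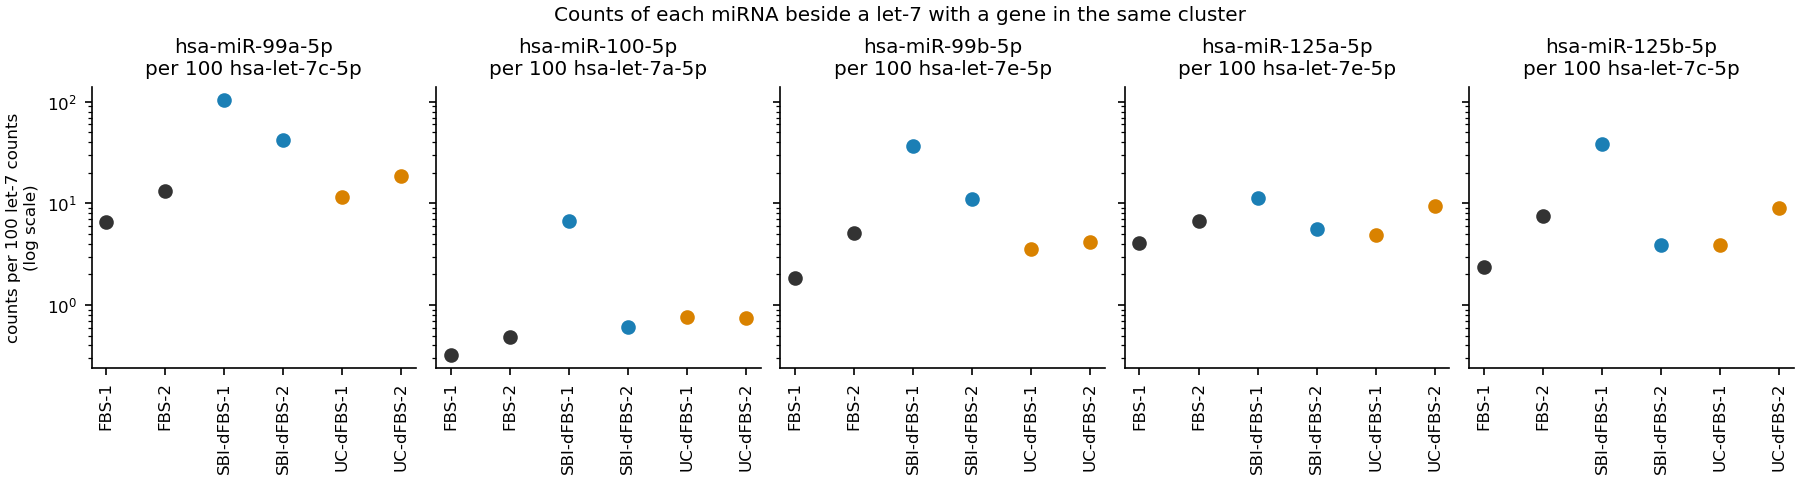
Counts of 5 of the miRNAs per 100 counts of a let-7 miRNA with a gene in the same cluster (log scale), by sample of FBS, SBI-dFBS and UC-dFBS. In the miR-99a-5p, miR-99b-5p and miR-100-5p panels both SBI-dFBS points lie above both FBS points, as both UC-dFBS points do for miR-100-5p. The miR-125a-5p and miR-125b-5p points of the media overlap. let-7a-5p and miR-125b-5p also come from other genes.

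The FBS, UC-dFBS and UF-dFBS samples also allowed the Gibco and Sigma-Aldrich sera to be compared, with the medium as a term. Of the 105 miRNAs tested, 37.1% differed in either direction, while 0 of the 5 tested among the 7 did by edgeR, 1 of them (miR-100-5p) at an unadjusted p under 0.05. DESeq2 called 0 and limma 1. The 5 had a median log2 change, Gibco minus Sigma-Aldrich, of -0.15, against -0.62 for the 105. miR-10a-5p (-0.07, SE 0.44), miR-10b-5p (-0.15, SE 0.30), miR-99a-5p (-0.27, SE 0.35) and miR-125b-5p (0.15, SE 0.47) had changes smaller than their SE. miR-100-5p was at -1.12 (SE 0.52, adjusted p = 0.0732, edgeR) and was the call of limma (-1.48, adjusted p = 0.00503). That change rested on UF-dFBS, without which it lay at -0.45. miR-125a-5p and miR-99b-5p passed the count filter only when it was relaxed, with changes of -0.01 (SE 0.60) and 0.35 (SE 0.77).

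StemPRO held 30 counts of the 7 among 1438 miRNA counts. The paper proposes that more of the StemPRO miRNA reads than in the other media may be experimental noise. Their summed level of 0.278 (95% interval 0.187 to 0.396) was 0.206% of the FBS mean, but their share of the miRNA counts was 2.09% (1.47 to 2.96), above the interval of each untreated serum. miR-125b-5p had 11 counts (0.102) and miR-125a-5p had 9 (0.0833), so the miR-125 miRNAs held 66.7% (48.8 to 80.8) of the counts of the 7, against 12.7% and 14.7% in FBS. miR-125a-5p was 0.626% (0.3296 to 1.19) of the miRNA counts, compared with 0.0142% and 0.0338% in FBS. miR-10a-5p had 5 counts, miR-10b-5p 3, and miR-99b-5p and miR-100-5p 1 each. miR-99a-5p had 0 counts. Taken as 3 counts, this is a share of 0.209% and a level 1004-fold below the FBS mean. The upper 95% limit of the share from 0 counts was 0.266%. miR-122-5p held 0.487% of the StemPRO counts, far less than in each FBS-based sample.

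Across the 8 FBS-based samples the 7 miRNAs followed each other, with low values of each in UF-dFBS. Pearson's r between log2 levels was highest for miR-10a-5p and miR-99a-5p (0.995) and lowest for miR-100-5p and miR-125a-5p (0.800), as a description over 8 samples that share the spike-in factors. The miRNAs most like the mean of the 7 on the spike-in scale were miR-221-3p (r = 0.997), miR-214-3p (0.995) and miR-339-5p (0.995), where the median of the other 156 miRNAs was 0.954. With counts scaled to the miRNA total (CPM), they were miR-361-5p (0.989), miR-24-3p (0.979) and miR-224-5p (0.976), with a median of 0.446. The 2 scales named different miRNAs.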

How the data were processed

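The deposited files gave counts of molecules per miRNA for 9 samples. The authors trimmed reads with cutadapt 1.11, collapsed reads sharing insert and unique molecular index, mapped them with Bowtie2 2.2.2 to mature miRBase sequences and then to human GRCh37, and also deposited the signal of each miRNA as a spike-in normalized count. Each count divided by its normalized value gave the sample's factor, used as library size in edgeR 4.0.16 (quasi-likelihood test, Benjamini-Hochberg over all miRNAs tested). One fit compared media over 8 FBS-based samples (at least 10 counts in 2 samples), another the sera over 6 samples (at least 10 counts in 3). edgeR's prior was infinite, so the spread was wholly pooled over miRNAs, with 4 and 2 residual degrees of freedom. Alternatives used TMM, DESeq2 1.42.0, limma 3.58.1 (log2 of value + 0.1, added after seeing the data), no filter, and samples left out. Totals and shares were compared by exact permutation tests, shares with Wilson and counts with exact Poisson 95% intervals. Levels between FBS, UC-dFBS and UF-dFBS are paired by serum, as the labels' supplier and the methods give. Differences between samples 1 and 2 correlated at 0.502 (FBS and UC-dFBS), 0.176 (FBS and UF-dFBS) and 0.0234 (UC-dFBS and UF-dFBS) over 163 miRNAs, and at -0.229 to 0.0191 with SBI-dFBS, whose numbers are lots. Scripts were tested on simulated data. The members and lists were chosen with earlier results of these data known. Named miRNAs were the 7, their opposite arms, the let-7 of their clusters, the 3 most alike on each scale and, as levels only, markers of liver, red cells, white cells and platelets, and endothelium. Other small RNAs served only for total counts.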

Additional observations from a re-analysis of the deposited data

How the results depend on the processing

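Both scaling and single samples changed the calls. Without spike-in factors, edgeR with TMM and DESeq2 with its own size factors called 10 and 10 miRNAs in SBI-dFBS against 74 with spike-in factors, 0 and 2 in UC-dFBS against 148, 22 and 23 in UF-dFBS against 160, 15 and 15 between UF-dFBS and UC-dFBS against 153, and 13 and 6 between the sera against 39. Of the 7 miRNAs both called 0 in SBI-dFBS, 0 in UC-dFBS, and 1 (miR-100-5p) in both UF-dFBS comparisons. Log2 changes that turned positive are given as TMM and DESeq2 values. In SBI-dFBS they were 0.31 and 0.19 for miR-10a-5p, 0.43 and 0.32 for miR-99a-5p, 0.45 and 0.28 for miR-99b-5p and 1.25 and 1.04 for miR-100-5p. In UC-dFBS they were 0.45 and 0.30 for miR-99a-5p, 0.48 and 0.36 for miR-100-5p, 0.30 and 0.17 for miR-125a-5p and 0.19 and 0.067 for miR-125b-5p, with 0.045 for miR-10a-5p and 0.058 for miR-99b-5p by TMM alone. In UF-dFBS they were 4.47 and 4.36 for miR-100-5p and 1.71 and 1.65 for miR-125b-5p from FBS, and 3.995 and 4.002 and 1.51 and 1.58 from UC-dFBS. Between the sera they were 0.66 and 0.46 for miR-10a-5p, 0.54 and 0.36 for miR-10b-5p and 0.47 and 0.31 for miR-99a-5p.

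With spike-in factors the directions in the media comparisons held under DESeq2, limma, no filter and fits of the compared media alone. limma called 5 of the 7 in SBI-dFBS, whereas DESeq2 called 3 there, 5 in UC-dFBS, 7 in UF-dFBS and 6 between UF-dFBS and UC-dFBS. No filter called 277 of 419 miRNAs in UF-dFBS, and a fit of UF-dFBS and UC-dFBS alone 87 of 90. Between the sera limma called 13 and 1 of the 7, DESeq2 14 and no filter 24 of 392, and miR-125b-5p turned to -0.081 under limma. Without hsa-miR-122-5p in the total, the difference in share turned to 0.198 percentage points for SBI-dFBS and 0.188 for UC-dFBS, and without miR-100-5p it turned to -0.185 in UF-dFBS.

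Leaving out each sample in turn gave 12 to 79 calls in SBI-dFBS, 56 to 152 in UC-dFBS and 0 to 59 between the sera, of which 0 to 3, 1 to 7 and 0 of the 7. In UF-dFBS all 7 stayed called, and between UF-dFBS and UC-dFBS 6 to 7. Between the sera, 0 miRNAs were called without FBS-1 or without FBS-2. Log2 changes ran from -1.99 to 0.047 for miR-100-5p in SBI-dFBS, and between the sera from -0.54 to 0.10 for miR-10b-5p and from -0.38 to 0.34 for miR-125b-5p. The difference in share ran from -0.505 to 0.00776 percentage points in SBI-dFBS, from -0.367 to 0.145 in UC-dFBS and from -0.250 to 0.905 in UF-dFBS. A sample left alone in its medium was assumed to vary like the others, and totals and shares then had no test.

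With the replicate number as a block, 67, 154, 155 and 150 miRNAs were called in SBI-dFBS, UC-dFBS and UF-dFBS against FBS and UF-dFBS against UC-dFBS. Of these, 3, 7, 7 and 7 were among the 7, as many as without the block. The numbers of SBI-dFBS are lots, so its block is no pairing. The other block fits left out the SBI-dFBS samples and tested 158 miRNAs, so they changed more than the pairing. Between the sera, where the blocking term is the medium, the fit without it called 0, and miR-10a-5p and miR-10b-5p turned to 0.016 and 0.045. Causes of these changes were not tested. Depth limits UF-dFBS and StemPRO, where a value of the 7 rests on 0 to 46 and 0 to 11 counts.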
